A study of Mus musculus with 8 samples.

Results

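The lysosome and TFEB network was followed as 43 genes: the transcription factors Tfeb, Tfe3 and Mitf, cathepsins and other lysosomal proteases, hydrolases of sugars and lipids, lysosomal membrane and lipid transport proteins, autophagy genes, and subunits of the proton pump. Each gene was read from the probe set that the platform annotation assigns to that gene alone, taking the one with the highest mean over the arrays. Of the 43 genes, 42 had such a probe set, among 18193 genes on the array that had one, and Cd63 did not. Of these 42, 41 passed the filter on dim probe sets and were tested, among 12529 tested genes. The exception was Ctss, with log2 signals between 2.47 and 5.76.

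The samples were C57BL/6 cells in a secondary OSKM reprogramming system, in which doxycycline switches on Oct4, Sox2, Klf4 and Myc. All 4 groups received doxycycline, written as 2 mg per ml in the labels, in a stem cell medium whose serum share was 15% and whose leukemia inhibitory factor was set at 100 units per ml. Cells given CSA or its solvent DMSO were sampled at day 3 and at day 6, which makes 4 groups of 2 biological repeats, 8 Affymetrix arrays in all. CSA, written as 10 mM, is cyclosporin A, which inhibits the phosphatase calcineurin. The study asked which genes differ between cells under calcineurin-NFAT inhibition and control cells at each day.

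Lysosomes degrade proteins, lipids, sugars and RNA with acid hydrolases, in a lumen kept acidic by a proton pump of many subunits, the V-ATPase. TFEB and its relatives TFE3 and MITF switch on many lysosomal and autophagy genes through CLEAR elements, sequences built on the E-box CACGTG. On the lysosome the kinase mTORC1 phosphorylates TFEB and holds it in the cytosol. Calcineurin, activated by calcium that leaves the lysosome through the channel encoded by Mcoln1, can dephosphorylate TFEB, which then enters the nucleus. The arrays measured RNA and not the location or phosphorylation of these factors.

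The promoter sequences show where this E-box lies in the network. RefSeq promoter windows (GRCm38.p6), from 250 bases before to 50 after a start site, were found for 37 of the 43 genes. The motif CACGTG, which reads alike on both strands, was present in a window of 14 of these 37 genes, or 37.8%, against 8.09% of all 27025 genes in the table. Among genes tested on the arrays the shares were 14 of 35 members, 40%, against 11.7% of 10130 genes. The longer TCACGTGA, which contains CACGTG, was present for 7 members, 18.9%, against 1.12% of all genes, and GTCACGTGAC, which contains both, for 0 members, against 0.37%. A match describes letters and not binding. The genes were listed as a lysosome and TFEB network, so a higher share of this motif among them is not an independent result. The following stretches, cut at the start site, show 1 copy or more of the motif for each of the 12 members that have it before the start site; capitals mark CACGTG. In Atp6v0d1 the motif spans the start site and in Atp6v0e it begins just after it, and no stretch is shown for either.
Ctsa promoter, chr2:164833734-164833772, plus strand: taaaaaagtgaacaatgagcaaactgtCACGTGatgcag
Ctsd promoter, chr7:142387893-142387952, minus strand: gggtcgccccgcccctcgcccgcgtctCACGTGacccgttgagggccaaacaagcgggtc
Ctsf promoter, chr19:4855059-4855118, plus strand: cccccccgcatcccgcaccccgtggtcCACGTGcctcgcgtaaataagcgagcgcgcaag
Ctsl promoter, chr13:64370724-64370770, minus strand: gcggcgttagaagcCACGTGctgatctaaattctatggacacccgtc
Lgmn promoter, chr12:102439109-102439168, minus strand: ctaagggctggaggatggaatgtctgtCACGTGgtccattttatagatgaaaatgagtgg
Gaa promoter, chr11:119267796-119267855, plus strand: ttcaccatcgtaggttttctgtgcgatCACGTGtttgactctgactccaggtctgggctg
Glb1 promoter, chr9:114401003-114401062, plus strand: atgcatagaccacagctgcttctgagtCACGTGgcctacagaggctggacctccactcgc
Gla promoter, chrX:134601167-134601226, minus strand: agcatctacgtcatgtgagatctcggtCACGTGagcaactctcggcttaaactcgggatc
Naglu promoter, chr11:101069994-101070053, plus strand: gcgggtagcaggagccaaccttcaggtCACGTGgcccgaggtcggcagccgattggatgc
Mcoln1 promoter, chr8:3500421-3500480, plus strand: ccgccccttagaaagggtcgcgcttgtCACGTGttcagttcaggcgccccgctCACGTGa
Lamp1 promoter, chr8:13159089-13159148, plus strand: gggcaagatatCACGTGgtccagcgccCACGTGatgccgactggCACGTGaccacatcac
Atp6v1a promoter, chr16:44139358-44139417, minus strand: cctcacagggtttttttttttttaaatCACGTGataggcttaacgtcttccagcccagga
The motif of Ctsa began 12 bases before the start site and that of Ctsd 98 bases before it. The Lamp1 stretch holds 3 copies of the motif and the Mcoln1 stretch 2.

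CSA against DMSO at day 3 asked which members differed with CSA early in reprogramming. No group separates calcineurin inhibition from other effects of CSA. With CSA 19 of 41 members rose and 0 fell at an adjusted p under 0.05, and 22 did not pass. Across all 12529 tested genes 7.14% were higher and 5.52% lower in this comparison. The median difference of the 41 members was 0.27 on the log2 scale, against -0.0042 for all tested genes, and 39 of the 41 differences were positive. Rises were seen for 5 of 12 tested proteases, 6 of 11 hydrolases, 4 of 6 membrane and lipid transport genes, 2 of 3 autophagy genes and 2 of 6 proton pump genes, and for 0 of the 3 transcription factors. The members lie high on the signal scale, where the test is more sensitive. Among the 1549 tested genes at or above the members' median signal, 12.3% were higher and 11.6% lower, and of the 21 members in that range 12 rose and 0 fell. The largest change was that of Ctsk, 2.5-fold, and the smallest change past the threshold was that of Atp6v1a, 1.2-fold. The fit smooths the error along the signal scale, and without that smoothing 3 members passed (Ctsk, Hexa and Sqstm1), with 2.19% of all genes past the threshold. The count was 5 without CSA replicate 1 of day 3 and 9 without CSA replicate 2, each of them higher, with medians of 0.29 and 0.33.

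At day 6 the same comparison was made later in reprogramming. With CSA 13 of 41 members rose, 2 fell, Lgmn and Scarb2, and 26 did not pass. Across all tested genes 6.41% were higher and 6.11% lower. The median of the members was 0.24, against -0.012 for all tested genes, and 32 of 41 differences were positive. Rises were seen for 4 of 12 proteases, 3 of 11 hydrolases, 0 of 6 membrane and lipid transport genes, 3 of 3 autophagy genes and 3 of 6 proton pump genes. Of the 21 brighter members 9 rose and 1 fell, against 13.0% and 7.55% of the brighter genes. Without the smoothing of the error 3 members passed at day 6, Ctsk, Sqstm1 and Atp6v0d1, with 3.38% of all genes. Over both days 9 members rose in each comparison, 9 passed only at day 3 and rose, 4 passed only at day 6 and rose, and 17 passed at neither day. The shares of all tested genes with these patterns were not counted, so the counts only describe the members. The 2 comparisons share no arrays, but both take their error from 1 model over the 8 arrays, so their calls are not independent. Arrays of the groups did not overlap, with CSA higher, for 31 members at day 3 and 29 at day 6, against 28.2% and 27.8% of all tested genes, and with CSA lower for 0 and 5 members, against 28.3% and 30.2%.

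**Figure D1:**
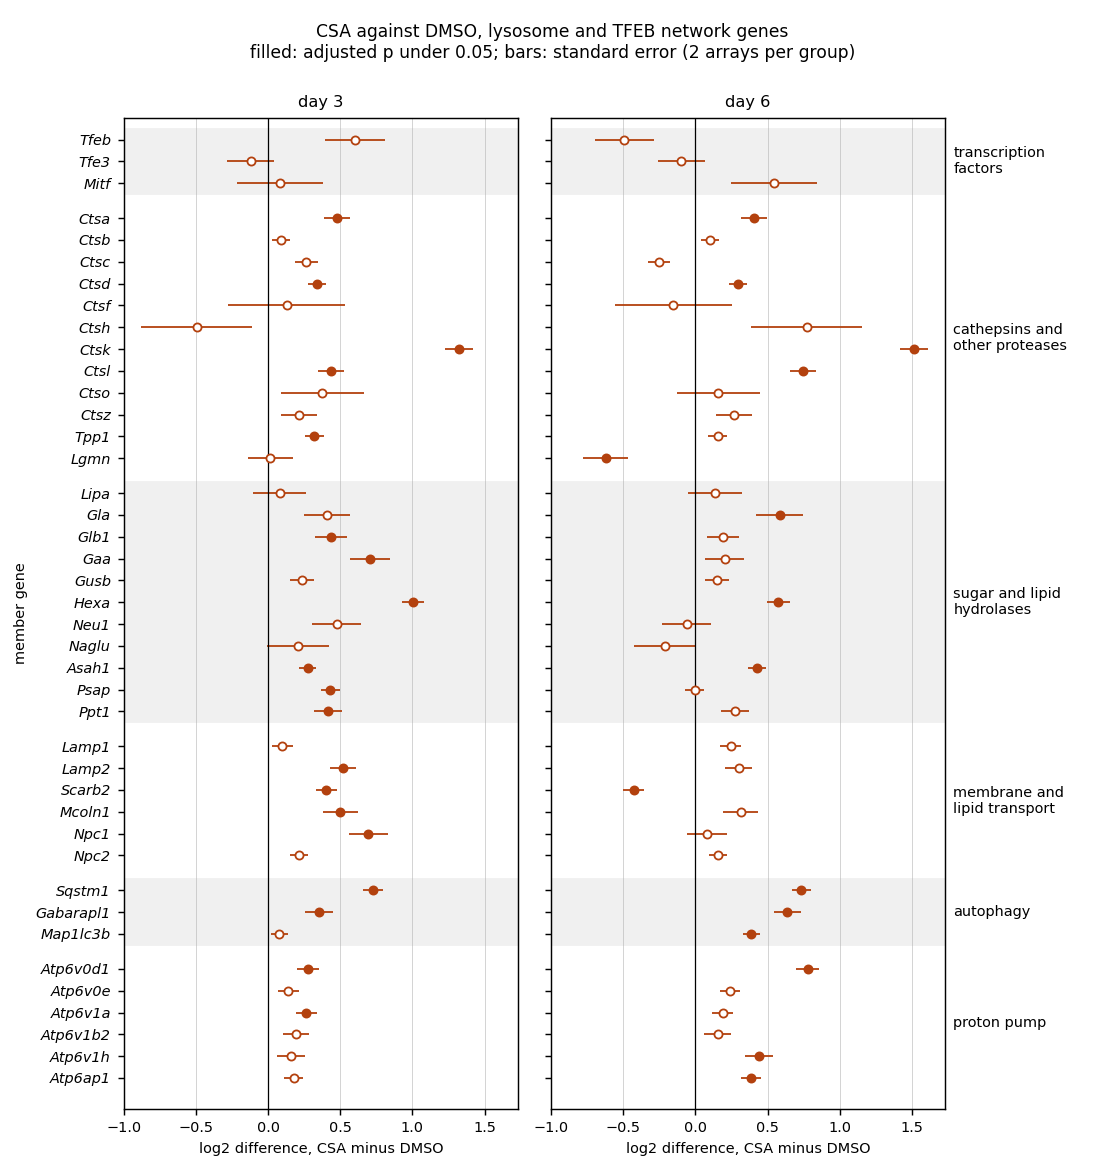
Log2 difference between CSA and DMSO (x axis) for the 41 tested members (y axis, grouped by role), at day 3 on the left and day 6 on the right. Points are differences of 2 arrays per group, bars are standard errors from limma, and filled points have an adjusted p under 0.05; 19 points are filled to the right of 0 at day 3, and 13 to the right and 2 to the left at day 6.

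The plot of CSA effects shows the members shifted to the right at both days, with Ctsk farthest out, and the 3 transcription factors on either side of 0. The error given after ± is the standard error from limma, with 2 arrays a group, and adjusted p-values are Benjamini-Hochberg values over all tested probe sets. A signal is a log2 value, and a difference of 1 is a 2-fold change. The lists of ended calls below leave out the fit without smoothing of the error. That fit ended all CSA calls but those of the 3 members named for each day, and all 4 interaction calls. Of the calls for day 6 against day 3 it kept 24 of 30 in DMSO and 14 of 28 under CSA. Signals of different genes come from different probes and are not compared with each other. In these cultures fewer cells of a type and less RNA per cell cannot be told apart.

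The transcription factors of the network did not pass at either day in the fit over all arrays. Tfeb read 7.37 and 7.90 on the DMSO arrays and 8.22 and 8.25 on the CSA arrays at day 3, and 8.30 and 8.30 on the DMSO arrays and 7.89 and 7.73 on the CSA arrays at day 6. The CSA arrays thus lay above the DMSO arrays at day 3 and below them at day 6, but the DMSO arrays of day 3 stood apart from each other. The Tfeb difference was 0.60 ± 0.21 at day 3 (adjusted p = 0.0967) and -0.49 ± 0.21 at day 6 (0.17). The day 3 difference passed under 1 alternative, without DMSO replicate 2 of day 3, at 0.87 (adjusted p = 0.0393). The difference between the effects of the 2 days was -1.09 ± 0.29 (adjusted p = 0.0611). That last value passed under 3 of 18 alternatives, with adjusted p between 0.0298 and 0.168 over all of them. Tfe3, the close relative that often acts with Tfeb, read 10.34 and 9.997 on the DMSO arrays and 10.25 and 9.84 on the CSA arrays at day 3, and 10.12 and 10.44 on the DMSO arrays and 10.29 and 10.08 on the CSA arrays at day 6. These arrays overlapped at both days, with differences of -0.12 ± 0.16 (adjusted p = 0.732) and -0.10 ± 0.16 (0.79). Mitf, better known from pigment cells and osteoclasts, read 6.47 and 6.38 on the DMSO arrays and 6.55 and 6.45 on the CSA arrays at day 3, and 6.68 and 7.13 on the DMSO arrays and 7.36 and 7.55 on the CSA arrays at day 6. Its day 6 arrays did not overlap, yet the difference of 0.55 ± 0.30 did not pass (adjusted p = 0.303), and that of day 3 was 0.082 ± 0.30 (0.915).

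Among the proteases, 4 cathepsins rose at both days. Cathepsin K (Ctsk), a cysteine protease that cleaves collagen and that NFATc1 switches on in osteoclasts, read 9.76 and 9.75 on the DMSO arrays and 10.996 and 11.16 on the CSA arrays at day 3. At day 6 it read 8.96 and 8.91 on the DMSO arrays and 10.47 and 10.42 on the CSA arrays. No DMSO array reached a CSA array, and the DMSO signals were lower at day 6 than at day 3. The Ctsk rise was 1.32 ± 0.10 (adjusted p = 2.55e-05), or 2.5-fold, and 1.51 ± 0.10 (adjusted p = 1.17e-05), or 2.85-fold, and it passed in each of the 15 alternatives at each day. Cathepsin L (Ctsl), a cysteine endopeptidase, read 13.63 and 13.35 on the DMSO arrays and 13.90 and 13.95 on the CSA arrays at day 3, and 12.93 and 12.87 on the DMSO arrays and 13.74 and 13.55 on the CSA arrays at day 6. The CSA arrays lay above the DMSO arrays at each day, with rises of 0.44 ± 0.090 (adjusted p = 0.0109) and 0.74 ± 0.090 (0.000512). Cathepsin D (Ctsd), the main aspartic protease of lysosomes, read 13.38 and 13.31 on the DMSO arrays and 13.73 and 13.64 on the CSA arrays at day 3, and 12.97 and 12.93 on the DMSO arrays and 13.22 and 13.27 on the CSA arrays at day 6. Both days were without overlap, and Ctsd rose by 0.34 ± 0.061 (adjusted p = 0.00557) and 0.29 ± 0.061 (0.0115). Cathepsin A (Ctsa), a carboxypeptidase that also stabilises lysosomal glycosidases, read 11.21 and 10.99 on the DMSO arrays and 11.60 and 11.57 on the CSA arrays at day 3, and 11.55 and 11.60 on the DMSO arrays and 11.89 and 12.07 on the CSA arrays at day 6. Here the signal was higher with CSA at each day and higher at day 6 in each treatment, with rises of 0.48 ± 0.090 (adjusted p = 0.0072) and 0.40 ± 0.090 (0.0167). The cathepsin calls of day 3 ended for Ctsl without DMSO replicate 2 (adjusted p = 0.0675), for Ctsd, Ctsa and Ctsl without CSA replicate 1 (0.0678, 0.0597 and 0.0609), for Ctsa and Ctsl without CSA replicate 2 (0.0515 and 0.09) and for Ctsa with probe sets averaged per gene (0.41). The cathepsin calls of day 6 ended for Ctsd and Ctsa without DMSO replicate 1 (adjusted p = 0.051 and 0.103), for Ctsd and Ctsa without DMSO replicate 2 (0.0942 and 0.0753), for Ctsd and Ctsa without CSA replicate 2 (0.0663 and 0.121) and for Ctsa with probe sets averaged per gene (0.558). 

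The other proteases went separate ways. Tripeptidyl peptidase (Tpp1), which trims tripeptides from protein ends, read 12.37 and 12.27 on the DMSO arrays and 12.65 and 12.64 on the CSA arrays at day 3, and 12.47 and 12.45 on the DMSO arrays and 12.65 and 12.58 on the CSA arrays at day 6. Its CSA arrays were above the DMSO arrays at both days, and the rise of 0.32 ± 0.065 at day 3 passed (adjusted p = 0.0103), while 0.15 ± 0.065 at day 6 did not (0.177). Its second probe set was at 0.26 at day 3 and did not pass (adjusted p = 0.0779). Legumain (Lgmn), the asparaginyl endopeptidase that matures several cathepsins, read 8.35 and 8.57 on the DMSO arrays and 8.34 and 8.61 on the CSA arrays at day 3, and 9.86 and 10.22 on the DMSO arrays and 9.40 and 9.43 on the CSA arrays at day 6. Its arrays overlapped at day 3 and lay lower with CSA at day 6, where the difference was -0.62 ± 0.16 (adjusted p = 0.0294), against 0.016 ± 0.16 at day 3 (adjusted p = 0.972). Cathepsin C (Ctsc), which activates serine proteases of immune cells, read 11.89 and 11.74 on the DMSO arrays and 12.07 and 12.08 on the CSA arrays at day 3, and 12.18 and 12.10 on the DMSO arrays and 11.95 and 11.82 on the CSA arrays at day 6. The CSA arrays of Ctsc were above DMSO at day 3 and below it at day 6, and neither difference passed (0.26 ± 0.078, adjusted p = 0.0566, and -0.25 ± 0.078, adjusted p = 0.0671). Its 2 other tested probe sets were negative at both days, so the change of sign was seen in 1 probe set only. They were at -0.40 (adjusted p = 0.268) and -0.40 (0.681) at day 3, and -0.22 (0.582) and -0.74 (0.37) at day 6. Of the remaining proteases, Ctsb was at 0.087 ± 0.061 and 0.10 ± 0.061, and Ctsz at 0.21 ± 0.12 and 0.27 ± 0.12, none past the threshold. The other 2 probe sets of Ctsz did pass at day 3, at 0.29 (adjusted p = 0.0433) and 0.32 (0.0314). Ctsf, Ctsh and Ctso varied more between replicate arrays, with standard errors of 0.29 to 0.41, and did not pass at either day. The other protease calls of day 3 ended for Tpp1 without DMSO replicate 2, CSA replicate 1 or CSA replicate 2 (adjusted p = 0.0597, 0.0751 and 0.0722). The other protease calls of day 6 ended for Lgmn without DMSO replicate 2, CSA replicate 1 or CSA replicate 2 (adjusted p = 0.24, 0.106 and 0.107). 

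Hydrolases of sugars and lipids rose in 6 of 11 genes at day 3 and in 3 of 11 at day 6. Hexa, the alpha subunit of the hexosaminidase that degrades the ganglioside GM2, read 11.30 and 11.27 on the DMSO arrays and 12.29 and 12.28 on the CSA arrays at day 3. At day 6 it read 11.29 and 11.08 on the DMSO arrays and 11.77 and 11.75 on the CSA arrays. The CSA arrays lay close together and above the DMSO arrays at each day, and Hexa rose by 1.004 ± 0.079 (adjusted p = 4.56e-05), or 2.01-fold, and by 0.57 ± 0.079 (0.00109). Acid ceramidase (Asah1) read 13.31 and 13.25 on the DMSO arrays and 13.59 and 13.51 on the CSA arrays at day 3, and 12.93 and 12.84 on the DMSO arrays and 13.31 and 13.31 on the CSA arrays at day 6. Here too the arrays were apart at both days, with rises of 0.27 ± 0.062 (adjusted p = 0.0175) and 0.43 ± 0.062 (0.00145). Gla, the alpha-galactosidase missing in Fabry disease, read 9.004 and 9.47 on the DMSO arrays and 9.74 and 9.55 on the CSA arrays at day 3, and 8.61 and 8.84 on the DMSO arrays and 9.26 and 9.34 on the CSA arrays at day 6. All CSA arrays of Gla lay above the DMSO arrays of their day, but its rise passed at day 6 (0.58 ± 0.16, adjusted p = 0.0446) and not at day 3 (0.41 ± 0.16, adjusted p = 0.151).

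Gaa, Glb1, Psap and Ppt1 passed at day 3 and not at day 6. Gaa, the acid glucosidase that degrades glycogen, read 9.11 and 9.34 on the DMSO arrays and 10.03 and 9.84 on the CSA arrays at day 3, and 9.90 and 9.56 on the DMSO arrays and 9.92 and 9.94 on the CSA arrays at day 6. CSA arrays lay above the DMSO arrays at both days. Gaa rose by 0.70 ± 0.14 at day 3 (adjusted p = 0.00812) and was at 0.20 ± 0.14 at day 6 (0.419). Glb1, the beta-galactosidase used as a stain of senescent cells, read 9.90 and 9.89 on the DMSO arrays and 10.31 and 10.35 on the CSA arrays at day 3, and 10.63 and 10.29 on the DMSO arrays and 10.64 and 10.66 on the CSA arrays at day 6. The Glb1 arrays were apart at both days, and the rise was 0.44 ± 0.11 (adjusted p = 0.0301), against 0.19 ± 0.11 at day 6 (0.346). Prosaposin (Psap), the precursor of the saposins that present lipids to hydrolases, read 11.91 and 11.95 on the DMSO arrays and 12.39 and 12.34 on the CSA arrays at day 3, and 12.59 and 12.55 on the DMSO arrays and 12.61 and 12.52 on the CSA arrays at day 6. It rose by 0.43 ± 0.066 at day 3 (adjusted p = 0.00211) and its arrays overlapped at day 6, at -0.0053 ± 0.066 (0.977). Its second probe set did not pass, at 0.15 at day 3 (adjusted p = 0.323) and 0.15 at day 6 (0.306). Ppt1, a thioesterase that removes palmitate from proteins, read 9.60 and 9.60 on the DMSO arrays and 10.05 and 9.98 on the CSA arrays at day 3, and 9.83 and 9.81 on the DMSO arrays and 10.16 and 10.04 on the CSA arrays at day 6. Its rise of 0.42 ± 0.10 passed at day 3 (adjusted p = 0.02), and 0.28 ± 0.10 at day 6 did not (0.106), although its second probe set was at 0.67 at day 6 (adjusted p = 0.00599) and at 0.36 at day 3 (0.0935), where it did not pass. Lipa, Gusb, Neu1 and Naglu did not pass at either day, with differences between 0.080 (Lipa) and 0.48 (Neu1) at day 3 and between -0.21 (Naglu) and 0.15 (Gusb) at day 6. The hydrolase calls of day 3 ended for Glb1, Ppt1 and Gaa without DMSO replicate 1 (adjusted p = 0.0845, 0.0613 and 0.0513), for Glb1, Asah1 and Ppt1 without DMSO replicate 2 (0.101, 0.0862 and 0.0687), for Glb1, Asah1, Ppt1 and Gaa without CSA replicate 1 (0.125, 0.151, 0.133 and 0.0809), for Glb1, Asah1 and Ppt1 without CSA replicate 2 (0.154, 0.0594 and 0.0889), for Glb1 and Ppt1 after quantile normalization (0.0749 and 0.0542) and for Ppt1 with probe sets averaged per gene (0.0929). The hydrolase calls of day 6 ended for Gla without DMSO replicate 1, DMSO replicate 2, CSA replicate 1 or CSA replicate 2 (adjusted p = 0.238, 0.0855, 0.106 and 0.178) and for Gla with no filter on dim probe sets (0.0535). 

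**Figure D2:**
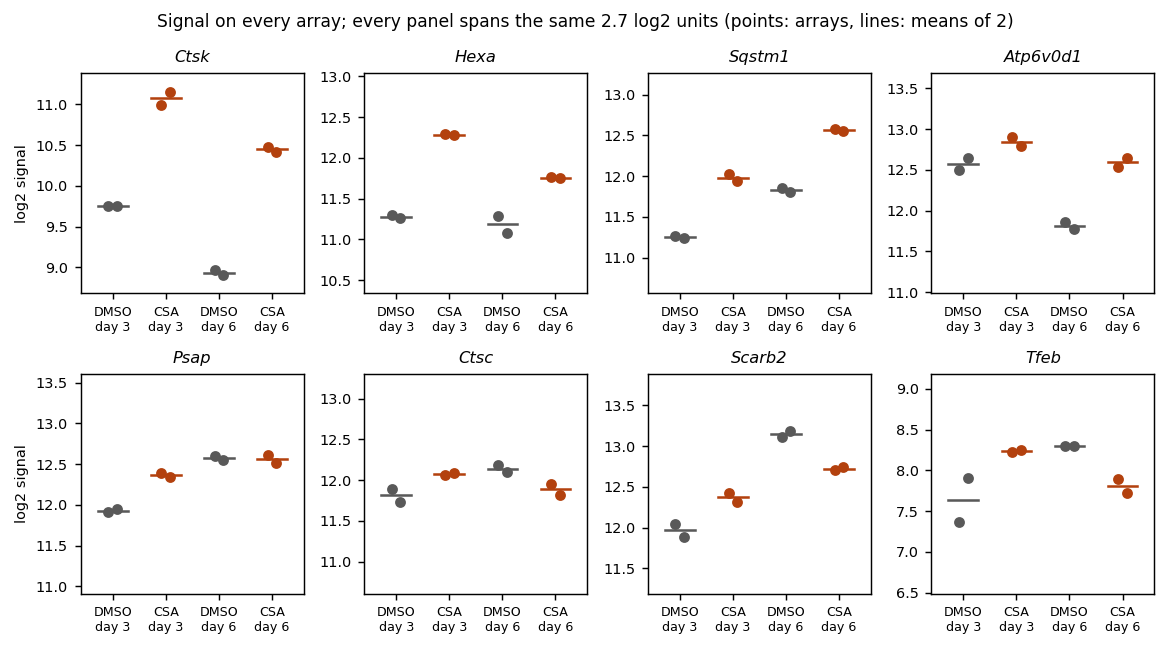
Log2 signal (y axis) on each of the 8 arrays for 8 members, by treatment and day (x axis); points are arrays, lines are means of 2, and every panel spans 2.7 log2 units. Ctsk, Hexa and Sqstm1 are higher with CSA at both days, Scarb2 is higher with CSA at day 3 and lower at day 6, and the Tfeb arrays of DMSO at day 3 lie apart, at 7.37 and 7.90.

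Membrane and lipid transport genes rose in 4 of 6 tested members at day 3 and in 0 of 6 at day 6, where 1 fell. Lamp2, a major lysosomal membrane glycoprotein, read 12.46 and 12.15 on the DMSO arrays and 12.83 and 12.82 on the CSA arrays at day 3, and 12.56 and 12.50 on the DMSO arrays and 12.78 and 12.88 on the CSA arrays at day 6. Its CSA arrays lay above the DMSO arrays at both days. The rise was 0.52 ± 0.092 at day 3 (adjusted p = 0.00499), and 0.30 ± 0.092 at day 6 did not pass (0.0657). Of the 3 other probe sets of Lamp2, 1 passed at day 3, at 0.38 (adjusted p = 0.0141), and 2 did not, at 0.056 (0.902) and 0.18 (0.389). Averaged over its probe sets Lamp2 was at 0.28 at day 3 (adjusted p = 0.0432). At day 6, 2 of the 3 passed, at 0.55 (adjusted p = 0.00183) and 0.59 (0.00782). Npc1, which exports cholesterol across the lysosomal membrane, read 7.92 and 7.99 on the DMSO arrays and 8.75 and 8.54 on the CSA arrays at day 3, and 9.23 and 9.29 on the DMSO arrays and 9.31 and 9.37 on the CSA arrays at day 6. It rose by 0.69 ± 0.14 at day 3 (adjusted p = 0.00887), and at day 6 its arrays lay close together (0.081 ± 0.14, adjusted p = 0.792). Mcoln1, the calcium channel upstream of calcineurin, read 8.93 and 8.82 on the DMSO arrays and 9.34 and 9.41 on the CSA arrays at day 3, and 9.30 and 9.54 on the DMSO arrays and 9.75 and 9.72 on the CSA arrays at day 6. Its arrays were apart at both days, with 0.50 ± 0.12 at day 3 (adjusted p = 0.0241) and 0.31 ± 0.12 at day 6 (0.138). Lamp1 and Npc2 did not pass, with differences of 0.10 ± 0.073 and 0.21 ± 0.063 at day 3 and 0.25 ± 0.073 and 0.16 ± 0.063 at day 6. A second probe set of Npc2 passed at both days, at 0.25 (adjusted p = 0.0249) and 0.31 (0.00868).

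Scarb2, the receptor LIMP-2 that carries glucocerebrosidase to lysosomes, was the 1 member called in opposite directions. It read 12.05 and 11.89 on the DMSO arrays and 12.43 and 12.32 on the CSA arrays at day 3, and 13.12 and 13.19 on the DMSO arrays and 12.71 and 12.74 on the CSA arrays at day 6. With CSA it was higher at day 3, by 0.40 ± 0.073 (adjusted p = 0.00583), and lower at day 6, with a difference of -0.43 ± 0.073 (0.00386). Its second probe set was at -0.026 at day 3 (adjusted p = 0.918) and -0.51 at day 6 (0.00805), so the probe sets gave different values at day 3 and were both lower with CSA at day 6. The membrane gene calls of day 3 ended for Mcoln1 without DMSO replicate 2 or CSA replicate 2 (adjusted p = 0.105 and 0.143), for Mcoln1, Npc1 and Scarb2 without CSA replicate 1 (0.0953, 0.0841 and 0.0671), for Scarb2 with probe sets averaged per gene (0.162) and for Mcoln1 without probe set types that can read several transcripts or genes (0.505). 

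All 3 autophagy genes were past the threshold at day 6, and 2 of them at day 3. Sqstm1, the cargo receptor p62, which NRF2 also induces, read 11.27 and 11.24 on the DMSO arrays and 12.03 and 11.94 on the CSA arrays at day 3, and 11.85 and 11.81 on the DMSO arrays and 12.58 and 12.55 on the CSA arrays at day 6. All CSA arrays lay above all DMSO arrays, with rises of 0.73 ± 0.067 (adjusted p = 0.000116) and 0.73 ± 0.067 (8.5e-05). Its only other tested probe set was dim and at 0.012 (adjusted p = 0.993) and 0.14 (0.911). Gabarapl1, an Atg8-family protein of the autophagosome membrane, read 9.87 and 9.99 on the DMSO arrays and 10.21 and 10.36 on the CSA arrays at day 3, and 10.62 and 10.48 on the DMSO arrays and 11.17 and 11.21 on the CSA arrays at day 6. It rose by 0.35 ± 0.10 (adjusted p = 0.0409) and 0.64 ± 0.10 (0.00183), with every CSA array above the DMSO arrays of its day. The second probe set of Gabarapl1 was at 0.45 (adjusted p = 0.0458) and, short of the threshold, 0.40 (0.0709). Map1lc3b, which encodes the autophagosome marker LC3B, read 13.22 and 13.19 on the DMSO arrays and 13.28 and 13.29 on the CSA arrays at day 3, and 12.62 and 12.60 on the DMSO arrays and 12.95 and 13.04 on the CSA arrays at day 6. Its difference was 0.078 ± 0.059 at day 3 (adjusted p = 0.487), and it rose by 0.39 ± 0.059 at day 6 (0.00197). Its 2 other probe sets gave smaller day 6 differences, 0.25 (adjusted p = 0.0387) and 0.11 (0.451), and the average over its probe sets was 0.25 (adjusted p = 0.00919). The autophagy calls of day 3 ended for Gabarapl1 without DMSO replicate 1, DMSO replicate 2, CSA replicate 1 or CSA replicate 2 (adjusted p = 0.16, 0.0588, 0.0772 and 0.254), for Gabarapl1 with no filter on dim probe sets (0.0528), for Gabarapl1 after quantile normalization (0.0895), for Gabarapl1 with only the 4 arrays of that day in the fit (0.0702), for Sqstm1 with probe sets averaged per gene (0.23) and for Sqstm1 without probe set types that can read several transcripts or genes (0.994). The autophagy calls of day 6 ended for Sqstm1 with probe sets averaged per gene (adjusted p = 0.152) and for Gabarapl1 and Sqstm1 without probe set types that can read several transcripts or genes (0.0704 and 0.917). 

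All 6 proton pump genes had positive differences at both days, 2 of them past the threshold at day 3 and 3 at day 6. Atp6v0d1, a subunit of the membrane sector, read 12.49 and 12.65 on the DMSO arrays and 12.90 and 12.79 on the CSA arrays at day 3, and 11.86 and 11.77 on the DMSO arrays and 12.53 and 12.65 on the CSA arrays at day 6. CSA arrays were higher at each day, by 0.27 ± 0.078 (adjusted p = 0.0487) and 0.78 ± 0.078 (0.00015). The DMSO arrays of Atp6v0d1 were lower at day 6 than at day 3. Atp6v1a, the catalytic subunit of the cytosolic sector, read 12.41 and 12.36 on the DMSO arrays and 12.61 and 12.70 on the CSA arrays at day 3, and 11.84 and 11.97 on the DMSO arrays and 12.05 and 12.14 on the CSA arrays at day 6. CSA arrays of Atp6v1a lay above DMSO at both days. It passed at day 3, at 0.26 ± 0.072 (adjusted p = 0.0418), and not at day 6, at 0.19 ± 0.072 (0.137). Its second probe set did not pass at day 3, at 0.15 (adjusted p = 0.199). Atp6v1h, a regulatory subunit of that sector, read 11.53 and 11.82 on the DMSO arrays and 11.90 and 11.77 on the CSA arrays at day 3, and 11.05 and 10.94 on the DMSO arrays and 11.41 and 11.46 on the CSA arrays at day 6. Its arrays overlapped at day 3 (0.16 ± 0.10, adjusted p = 0.373) and it rose by 0.44 ± 0.10 at day 6 (0.0166). Atp6ap1, an accessory protein of pump assembly, read 12.42 and 12.33 on the DMSO arrays and 12.59 and 12.51 on the CSA arrays at day 3, and 11.96 and 11.95 on the DMSO arrays and 12.38 and 12.30 on the CSA arrays at day 6. These arrays too were apart at both days. Atp6ap1 was at 0.18 ± 0.067 at day 3 (adjusted p = 0.133) and rose by 0.39 ± 0.067 at day 6 (0.00448). Atp6v0e and Atp6v1b2 did not pass at either day, with differences of 0.14 ± 0.072 and 0.19 ± 0.092 at day 3 and 0.24 ± 0.072 and 0.15 ± 0.092 at day 6. The pump calls of day 3 ended for Atp6v0d1 and Atp6v1a without DMSO replicate 1 (adjusted p = 0.223 and 0.0794), for Atp6v1a without DMSO replicate 2 (0.151), for Atp6v0d1 and Atp6v1a without CSA replicate 1 (0.277 and 0.105), for Atp6v0d1 and Atp6v1a without CSA replicate 2 (0.106 and 0.248), for Atp6v0d1 and Atp6v1a with no filter on dim probe sets (0.0746 and 0.066) and for Atp6v0d1 with only the 4 arrays of that day in the fit (0.0527). The pump calls of day 6 ended for Atp6v1h without DMSO replicate 1, DMSO replicate 2, CSA replicate 1 or CSA replicate 2 (adjusted p = 0.0502, 0.125, 0.055 and 0.0865) and for Atp6v1h with probe sets averaged per gene (0.533). 

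The interaction asked whether the CSA effect differed between the days. A negative value means that the CSA effect was lower at day 6 than at day 3. It passed for 4 of 41 members, 1 positive and 3 negative, against 2.36% and 3.43% of all tested genes. Scarb2 had the largest of these, -0.83 ± 0.10 (adjusted p = 0.00197), and its second probe set was at -0.48 (adjusted p = 0.0794). Psap was at -0.44 ± 0.093 (adjusted p = 0.0258) and Ctsc at -0.52 ± 0.11 (0.0263). The second probe sets of Psap and Ctsc were at 0.0033 (adjusted p = 0.994) and 0.18 (0.792). Atp6v0d1 went the other way, at 0.50 ± 0.11 (adjusted p = 0.0293). For the other 37 tested members a difference between the days was not shown, which includes the members called at 1 day only. The interaction calls ended for Psap without DMSO replicate 1 of day 3 (adjusted p = 0.0542), for Atp6v0d1 and Ctsc without DMSO replicate 2 of day 3 (0.0736 and 0.0645), for Atp6v0d1, Psap and Ctsc without CSA replicate 1 of day 3 (0.0708, 0.111 and 0.0957), for Atp6v0d1, Psap and Ctsc without CSA replicate 2 of day 3 (0.121, 0.0774 and 0.0976), for Atp6v0d1, Psap and Ctsc without DMSO replicate 1 of day 6 (0.0638, 0.0951 and 0.0986), for Atp6v0d1, Psap and Ctsc without DMSO replicate 2 of day 6 (0.115, 0.0753 and 0.0649), for Atp6v0d1, Psap and Ctsc without CSA replicate 2 of day 6 (0.0913, 0.076 and 0.0803) and for Psap and Ctsc with probe sets averaged per gene (0.154 and 0.594). 

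Genes of the pathway outside the 43 were counted from lists of further members. These lists, like the 43 genes, were chosen with earlier results of these data known. Their counts describe the lists and are not independent support. Of all tested genes 7.14% were higher and 5.52% lower at day 3, and 6.41% and 6.11% at day 6. Among genes at or above the members' median signal 12.3% were higher at day 3 and 13.0% at day 6. Regulators that act on TFEB at the lysosome rose in 6 of 16 tested genes at day 3 and in 6 of 16 at day 6, with 0 lower at either day. Rragd, a Rag GTPase that brings mTORC1 to lysosomes and is itself known as a TFEB target, rose by 0.95 ± 0.11 (adjusted p = 0.000351) and 0.73 ± 0.11 (0.0014). Fnip1 and Fnip2, partners of folliculin in its action on Rag GTPases, rose at day 3, by 0.70 ± 0.10 (adjusted p = 0.0015) and 0.78 ± 0.11 (0.00118), and were at 0.30 ± 0.10 (0.0881) and 0.16 ± 0.11 (0.422) at day 6. Further proton pump subunits rose in 4 of 10 genes at day 3 and 5 of 10 at day 6, with 0 lower. Atp6ap2, an accessory subunit, rose by 0.38 ± 0.058 (adjusted p = 0.00204) and 0.46 ± 0.058 (0.000635). Atp6v1g1 rose by 0.39 ± 0.068 (adjusted p = 0.00502) and 0.36 ± 0.068 (0.00689), and Atp6v1d by 0.43 ± 0.081 at day 6 (0.00735), with 0.17 ± 0.081 at day 3 (0.221).

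Further lysosomal hydrolases rose in 6 of 20 genes at day 3, with 0 lower, and in 6 at day 6, with 1 lower. The shares of all tested genes that were higher at these days were 7.14% and 6.41%. Dpp7, a dipeptidyl peptidase, rose by 0.77 ± 0.083 (adjusted p = 0.000289) and 0.93 ± 0.083 (6.98e-05). Galc, the galactosylceramidase, rose by 0.96 ± 0.13 at day 3 (adjusted p = 0.00101) and was at 0.37 ± 0.13 at day 6 (0.102). Ctse, an aspartic protease of endosomes, was at -0.14 ± 0.14 at day 3 (adjusted p = 0.611) and rose by 0.94 ± 0.14 at day 6 (0.00161). Further membrane proteins rose in 5 of 14 genes at day 3 and 2 of 14 at day 6, with 0 lower. Ostm1, the partner of a lysosomal chloride exchanger, rose by 0.78 ± 0.10 (adjusted p = 0.000789) and 0.37 ± 0.10 (0.0389). The sialic acid transporter Slc17a5 rose by 0.75 ± 0.12 at day 3 (adjusted p = 0.003) and was at 0.020 ± 0.12 at day 6 (0.951), and Tmem192 rose by 0.50 ± 0.10 at day 3 (0.0103) and was at 0.33 ± 0.10 at day 6 (0.0637).

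Autophagy and sorting genes were counted next. Further autophagy genes rose in 1 of 17 at day 3 and 3 of 17 at day 6, with 0 lower, against 7.14% and 6.41% of all genes. The median difference of the 17 was 0.10 at day 3, with 12 positive and 5 negative. At day 6 it was -0.013, with 8 positive and 9 negative, so the list as a whole lay around 0 there. Gabarap, the relative of Gabarapl1, rose by 0.38 ± 0.060 (adjusted p = 0.00272) and 0.51 ± 0.060 (0.000413). Uvrag and Atg4a rose at day 6, by 0.42 ± 0.10 (adjusted p = 0.0245) and 0.50 ± 0.13 (0.0302), and were at 0.28 ± 0.10 and 0.11 ± 0.13 at day 3. Of 10 genes that sort hydrolases to lysosomes 1 rose at day 3, and at day 6 there was 1 call in each direction. These counts are near the shares of all tested genes, 7.14% higher at day 3 and 6.41% higher and 6.11% lower at day 6. Igf2r, the large mannose 6-phosphate receptor, rose by 0.66 ± 0.10 at day 3 (adjusted p = 0.00231) and was at -0.13 ± 0.10 at day 6 (0.484). Nagpa rose by 0.62 ± 0.16 at day 6 (adjusted p = 0.0382) and the adaptor Gga2 was the gene that fell, at -0.33 ± 0.092 (0.045). Of 4 tested inhibitors of cysteine proteases 1 rose at each day. Cst6, cystatin E/M, was at 0.16 ± 0.28 at day 3 (adjusted p = 0.801) and rose by 1.79 ± 0.28 at day 6 (0.0025). Cstb rose by 0.31 ± 0.084 at day 3 (adjusted p = 0.0421) and was at 0.29 ± 0.084 at day 6 (0.056), and Csta1 was at -0.019 ± 0.63 (0.992) and 1.96 ± 0.63 (0.0775).

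**Figure D3:**
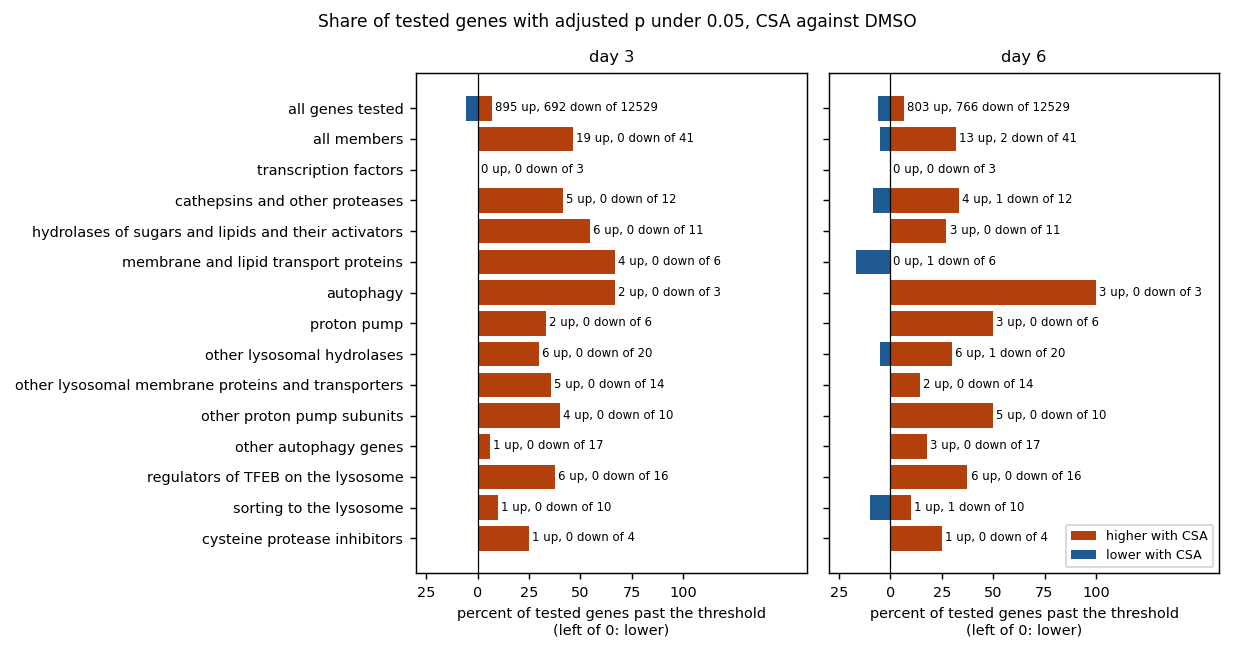
Percent of tested genes past an adjusted p of 0.05 (x axis; right of 0 higher with CSA, left of 0 lower) for all tested genes, the members by role and the further lists (y axis), at day 3 and day 6. The bars of all members reach 19 of 41 genes at day 3 and 13 of 41 at day 6, against 895 and 803 of 12529 tested genes.

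Promoter motif and CSA effect were set side by side for the 35 tested members in the promoter table. Of the 14 with CACGTG, 8 rose at day 3, and at day 6 5 rose and 1 was lower. Of the 21 without it, 9 rose at day 3, and at day 6 6 rose and 1 was lower. Across all tested genes 7.14% were higher and 5.52% lower at day 3, and 6.41% and 6.11% at day 6. Calls among all tested genes with and without the motif were not counted, so these counts only describe the members. Ctsa, Ctsd, Ctsl, Gaa, Glb1, Mcoln1 and Atp6v1a, whose stretches are printed, rose at day 3. Lamp1, with several copies, and Gla (0.41 ± 0.16, adjusted p = 0.151) did not pass at day 3, nor did Ctsf, Lgmn and Naglu. Ctsk, Hexa and Sqstm1 had no CACGTG in their window.

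The day course was read from day 6 against day 3 in each treatment. In DMSO 16 of 41 members were higher at day 6 and 14 lower, against 26.1% and 19.6% of all tested genes, and under CSA 14 were higher and 14 lower, against 20.2% and 15.8%. Bright genes as a whole were lower at day 6: among the genes at or above the members' median signal 52.0% were lower and 17.0% higher in DMSO, and 44.4% and 12.5% under CSA. Of the 21 members in that range 10 were lower and 5 higher in DMSO, and 11 and 4 under CSA, so the falls among them are near that background. Over all genes the day difference had a median of 0.078 in DMSO and 0.081 under CSA as deposited, and -0.029 and -0.020 after quantile normalization. The DMSO and CSA day comparisons share no arrays with each other, but each shares arrays with the CSA comparisons.

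**Figure D4:**
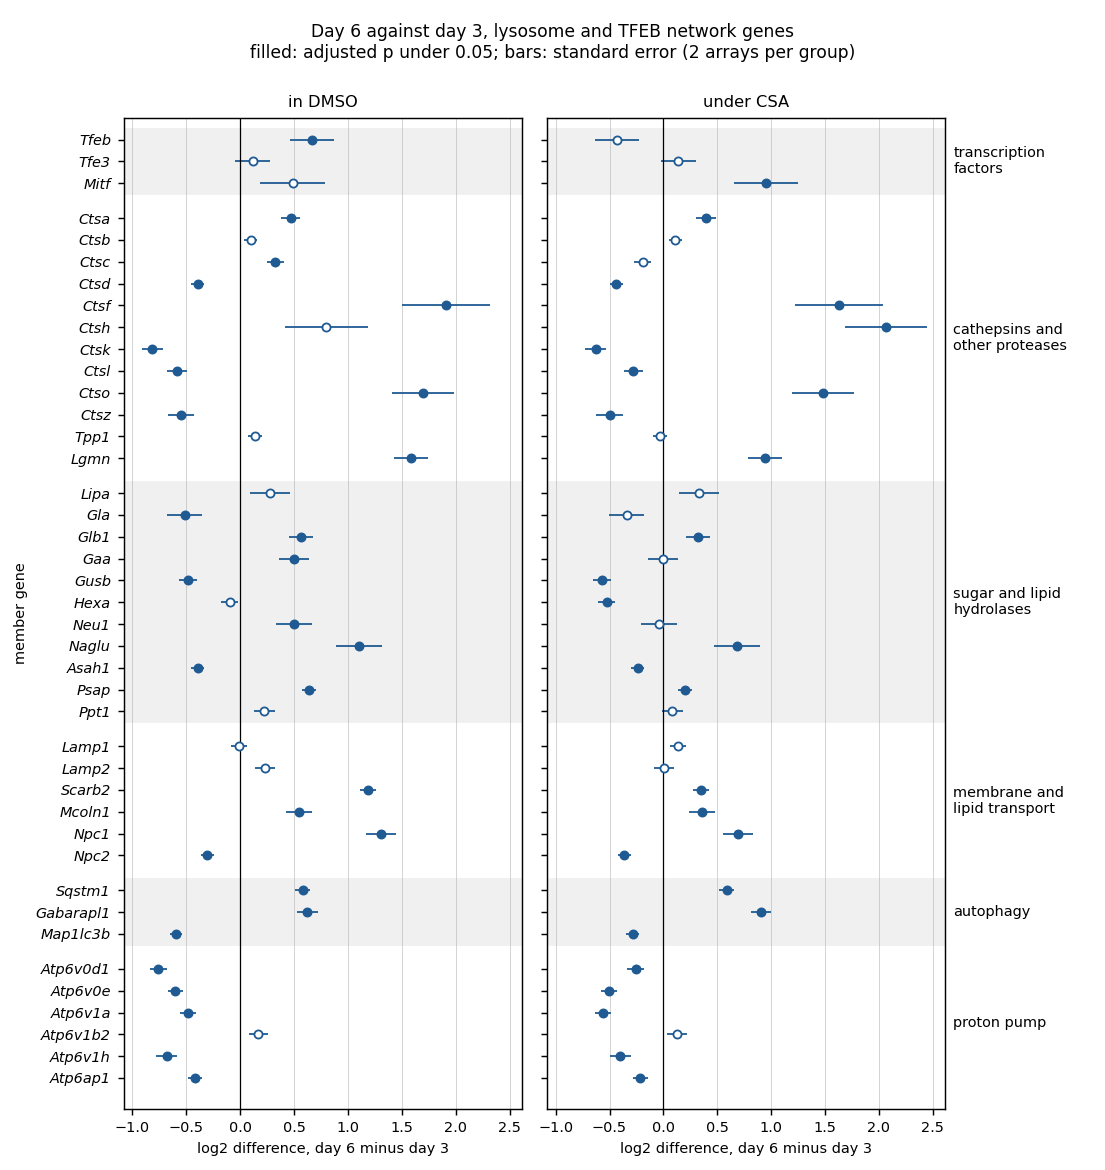
Log2 difference between day 6 and day 3 (x axis) for the 41 tested members (y axis, grouped by role), in DMSO on the left and under CSA on the right. Points are differences of groups of 2 arrays, bars are standard errors from limma, and filled points have an adjusted p under 0.05; of the 6 proton pump genes 5 are filled to the left of 0 in each panel.

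Of the transcription factors, Tfeb rose by 0.66 ± 0.21 in DMSO (adjusted p = 0.0227) and was at -0.43 ± 0.21 under CSA (0.14), where it passed after quantile normalization, at -0.67 (adjusted p = 0.0318). The DMSO call ended after quantile normalization (adjusted p = 0.16) and without DMSO replicate 1 of day 3 (0.167) or DMSO replicate 1 or 2 of day 6 (0.0846 and 0.0875). Mitf was at 0.49 ± 0.30 in DMSO (adjusted p = 0.221) and rose by 0.95 ± 0.30 under CSA (0.0319), lost when any of the 4 CSA arrays was dropped (0.0785 to 0.146), after quantile normalization (0.146) and with no filter on dim probe sets (0.0691). Among proteases 5 rose and 4 fell in each treatment. Ctsf, a cysteine cathepsin, read 6.31 and 7.63 at day 3 and 8.73 and 9.03 at day 6 in DMSO, and 7.64 and 6.55 at day 3 and 8.81 and 8.64 at day 6 under CSA. It rose by 1.91 ± 0.41 (adjusted p = 0.00298) and 1.63 ± 0.41 (0.011), the latter ending without CSA replicate 2 of day 3 (0.104) or CSA replicate 1 of day 6 (0.0614). Ctso read 5.85 and 6.65 at day 3 and 7.98 and 7.92 at day 6 in DMSO, and 6.63 and 6.62 at day 3 and 8.09 and 8.13 at day 6 under CSA, and rose by 1.70 ± 0.29 (adjusted p = 0.000643) and 1.48 ± 0.29 (0.00259). All day 6 arrays of both genes lay above their day 3 arrays. Ctsh, an aminopeptidase among the cathepsins, read 6.01 and 6.33 at day 3 and 7.07 and 6.86 at day 6 in DMSO, and 5.16 and 6.19 at day 3 and 7.69 and 7.79 at day 6 under CSA. It was at 0.80 ± 0.38 in DMSO (adjusted p = 0.12) and rose by 2.07 ± 0.38 under CSA (0.00196). Its second probe set passed in both, at 1.25 in DMSO (adjusted p = 0.0223) and 1.12 under CSA (0.046). Lgmn rose by 1.58 ± 0.16 (adjusted p = 1.53e-05) and 0.94 ± 0.16 (0.00103). The 4 proteases that fell in both treatments were Ctsd, Ctsk, Ctsl and Ctsz, with Ctsk at -0.82 ± 0.10 (adjusted p = 5.32e-05) and -0.63 ± 0.10 (0.000612). Under CSA the falls of Ctsl and Ctsz ended after quantile normalization (adjusted p = 0.506 and 0.0572), without CSA replicate 1 (0.104 and 0.0549) or 2 (0.157 and 0.0603) of day 3, and, for Ctsl, without CSA replicate 2 of day 6 (0.231) or, for Ctsz, replicate 1 (0.0733). The fall of Ctsl under CSA also ended with no filter on dim probe sets (adjusted p = 0.0557).

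Hydrolases of sugars and lipids rose in 5 of 11 genes and fell in 3 in DMSO, and 3 rose and 3 fell under CSA. Naglu, which degrades heparan sulfate, read 7.29 and 7.44 at day 3 and 8.39 and 8.54 at day 6 in DMSO, and 7.85 and 7.30 at day 3 and 8.25 and 8.26 at day 6 under CSA. Its arrays of day 6 were above those of day 3, with rises of 1.10 ± 0.21 (adjusted p = 0.00166) and 0.68 ± 0.21 (0.0319), and the latter ended after quantile normalization (0.168) and without CSA replicate 2 of day 3 (0.236) or CSA replicate 1 or 2 of day 6 (0.102 and 0.107). Psap and Glb1 rose in DMSO by 0.64 ± 0.066 (adjusted p = 1.9e-05) and 0.57 ± 0.11 (0.00173). Both also rose under CSA, by 0.20 (adjusted p = 0.0357) and 0.32 (0.0484). These CSA calls ended with no filter on dim probe sets (0.0637 and 0.0649) and, for Glb1, after quantile normalization (0.0713). Gusb, the beta-glucuronidase, read 10.99 and 10.88 at day 3 and 10.48 and 10.41 at day 6 in DMSO, and 11.12 and 11.21 at day 3 and 10.59 and 10.59 at day 6 under CSA. It fell in both, with differences of -0.49 ± 0.083 (adjusted p = 0.000687) and -0.57 ± 0.083 (0.000412). Hexa was at -0.10 ± 0.079 in DMSO (adjusted p = 0.368) and fell under CSA, at -0.53 ± 0.079 (0.000532).

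Membrane genes rose in 3 of 6 and fell in 1 of 6 in each treatment. Npc1 rose by 1.31 ± 0.14 (adjusted p = 2.24e-05) in DMSO and 0.69 ± 0.14 (0.00292) under CSA, and Scarb2 by 1.18 ± 0.073 (adjusted p = 6.52e-07) and 0.35 ± 0.073 (0.00389). The second probe set of Scarb2 was at -0.060 in DMSO (adjusted p = 0.664) and was lower at day 6 under CSA, at -0.54 (0.00165), so the probe sets of Scarb2 were called in opposite directions there. Averaged over probe sets, Scarb2 was at 0.56 in DMSO (adjusted p = 0.000298). Mcoln1 rose by 0.54 ± 0.12 (adjusted p = 0.00396) and 0.36 ± 0.12 (0.0442); under CSA this was lost when any of the 4 CSA arrays was dropped (0.11 to 0.184), after quantile normalization (0.165), with no filter on dim probe sets (0.0602) and with the replicate number as a block (0.052). Npc2 fell, at -0.30 ± 0.063 (adjusted p = 0.00236) and -0.36 ± 0.063 (0.00128), the former ending after quantile normalization (0.383). Among autophagy genes Gabarapl1 rose by 0.62 ± 0.10 (adjusted p = 0.000344) and 0.91 ± 0.10 (5.37e-05), and Sqstm1 by 0.58 ± 0.067 (4.72e-05) and 0.59 ± 0.067 (9.02e-05). Averaged over probe sets, Sqstm1 was at 0.92 (adjusted p = 0.00241) and 0.98 (0.00239). Map1lc3b fell, at -0.60 ± 0.059 (adjusted p = 1.58e-05) and -0.29 ± 0.059 (0.0039), the latter ending after quantile normalization (0.18), and averaged over probe sets it was at -0.31 (adjusted p = 0.000609) and -0.18 (0.0161). Without probe set types that can read several transcripts or genes the day calls of Map1lc3b, Mcoln1 and Sqstm1 ended in both treatments, with adjusted p between 0.0547 and 0.352.

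Proton pump genes fell in 5 of 6 in both treatments, and Atp6v1b2 did not pass. Atp6v0e, a small subunit of the membrane sector, read 13.04 and 13.10 at day 3 and 12.38 and 12.56 at day 6 in DMSO, and 13.16 and 13.26 at day 3 and 12.71 and 12.71 at day 6 under CSA. Every day 6 array lay below the day 3 arrays, with differences of -0.60 ± 0.072 (adjusted p = 5.68e-05) and -0.50 ± 0.072 (0.00038). Atp6v0d1 had the largest fall of the 6 in DMSO, at -0.76 ± 0.078 (adjusted p = 1.94e-05), and was at -0.26 ± 0.078 under CSA (0.028). Atp6v1h was at -0.68 ± 0.10 (adjusted p = 0.000213) and -0.40 ± 0.10 (0.00975), and Atp6v1a at -0.48 ± 0.072 (0.000276) and -0.56 ± 0.072 (0.000193). Further pump subunits fell in 9 of 10 genes and rose in 1 in DMSO, and fell in 7 of 10 under CSA. Of all tested genes 19.6% were lower at day 6 in DMSO and 15.8% under CSA. Among genes at or above the members' median signal, a range where many pump genes lie, the shares were 52.0% and 44.4%. After quantile normalization 5 of the 6 pump members were still lower in DMSO and 3 under CSA, where the calls of Atp6v0d1 and Atp6ap1 ended (adjusted p = 0.572 and 0.665). With probe sets averaged per gene the Atp6v1h call ended in DMSO (0.795), and under CSA the difference turned to 0.13 (0.631). With no filter on dim probe sets the CSA call of Atp6ap1 ended (0.0573). Without CSA replicate 1 of day 3 the CSA calls of Atp6v0d1, Atp6ap1 and Atp6v1h ended (0.19, 0.204 and 0.0901), and the count of members called under CSA was 18 without CSA replicate 1 and 18 without CSA replicate 2 of day 3, in place of 28. Without CSA replicate 2 of day 3 those of Atp6v0d1 and Atp6ap1 ended (0.0516 and 0.0653), without CSA replicate 1 of day 6 those of Atp6v0d1 and Atp6v1h (0.156 and 0.0511), and without CSA replicate 2 of day 6 that of Atp6ap1 (0.153).

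Marker genes of other cell types were counted on the same arrays. Of 12 macrophage markers 5 passed the filter on dim probe sets, and Ptprc, Itgam, Tyrobp, Aif1, Mpeg1, C1qa and C1qb did not. The summed linear signal of the 12 was 572 to 595 in DMSO and 512 to 538 with CSA at day 3, and 492 to 524 and 606 to 645 at day 6, and 0 of the 5 passed for CSA at either day. Of 8 osteoclast markers 2 passed the filter, with Acp5, Calcr, Ocstamp, Dcstamp, Oscar and Mmp9 below it, and of 6 melanocyte markers 2 passed, with Tyr, Tyrp1, Dct and Mlana below it; 0 of either list passed for CSA. The summed signal of the osteoclast markers was 539 to 573 in DMSO and 586 to 691 with CSA at day 3, and 603 to 684 and 528 to 699 at day 6 and that of the melanocyte markers 197 to 242 in DMSO and 190 to 197 with CSA at day 3, and 161 to 186 and 260 to 338 at day 6. All 9 fibroblast markers on the array passed the filter; the CSA comparison had 1 higher and 2 lower at day 3, and 1 lower at day 6. Their summed signal was 21041 to 22545 in DMSO and 20773 to 20919 with CSA at day 3, and 33107 to 33660 and 27716 to 27945 at day 6. Most of the day 3 sum came from Dcn. Of the 9 differences 5 were positive and 4 negative at day 3, and 1 and 8 at day 6. The 6 markers of simple epithelium all passed the filter, with 2 higher and 1 lower at day 3 and 4 lower at day 6. Their summed signal was 21645 to 23018 in DMSO and 26022 to 26322 with CSA at day 3, and 35975 to 38346 and 25757 to 26329 at day 6. Most of this sum came from Krt8 and Cdh1. At day 3 the differences were 3 positive and 3 negative, the latter those of Epcam, Krt18 and Krt19, so the list did not rise as a whole. Of 5 keratinocyte markers 2 passed the filter and 1, Krt14, rose with CSA at day 3. The summed signal of the 5, most of it from Krt14, was 3901 to 4176 in DMSO and 5885 to 6419 with CSA at day 3, and 3689 to 3998 and 4076 to 4213 at day 6. Col17a1, the other tested marker, went the other way, at -1.04 at day 3 and -1.94 at day 6, and did not pass. Its day 6 arrays read 8.85 and 8.84 in DMSO and 6.92 and 6.90 with CSA. Of 10 pluripotency markers 5 passed the filter and 1 was lower with CSA at day 6, while Nanog and Sox2 were below it on average. The summed signal was 1430 to 1511 in DMSO and 1383 to 1725 with CSA at day 3, and 1901 to 2314 and 1248 to 1366 at day 6. Among the 5 the lowest day 6 difference was that of Pou5f1, -1.07. Pou5f1, which encodes Oct4, and Sox2 are among the factors that doxycycline switches on, so their signal need not mark pluripotent cells. The part of these shifts in the member values was not tested. Median log2 signals of the arrays ran from 6.15 to 6.53. The labels call the arrays biological repeats without saying how the cultures were separated, so the p-values measure the spread between these samples.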

How the data were processed

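The deposited table held MAS5 signals of 8 Affymetrix arrays, MAS5 per the submitters' processing notes. The values were log2 signals as deposited by the authors, scaled to a 2% trimmed mean signal of 497 as the values show; its software settings are not stated. Array precision is limited by 2 arrays per group. Genes were named through the platform annotation (34945 of 45037 probe sets had 1 symbol, 932 several and 9160 none). Probe sets with a mean at or above the 40th percentile (log2 5.37) were kept, 27022 in all, and the 4 group means were estimated in 1 model over the 8 arrays with limma 3.58.1 in R 4.3.3 (lmFit, eBayes with an intensity trend, 4 residual degrees of freedom), two-sided, with Benjamini-Hochberg adjustment over all tested probe sets and a threshold of 0.05. The fit was tested on simulated data. Members past the threshold for CSA or the interaction, and the 3 transcription factors, have every array printed; for the days up to 3 members per role with the largest difference are named, and 3 genes per further list with the smallest p over both CSA comparisons. Members and lists were chosen with earlier results of these data known. Motifs were searched in RefSeq promoter windows. Alternatives covered the filter, normalization, error trend, pseudocount, floor, probe set rule, replicate block and leaving out each array.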

Additional observations from a re-analysis of the deposited data

Results flagged for a closer look

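The CSA effect differed between day 6 and day 3 for 4 members by limma's interaction test. The difference was -0.83 for Scarb2 (adjusted p = 0.00197), -0.52 for Ctsc (0.0263), -0.44 for Psap (0.0258) and 0.50 for Atp6v0d1 (0.0293). Scarb2 kept its call without any 1 of the 8 arrays and lost it without the error trend, while the other 3 calls each ended without 6 of the 8 arrays taken out in turn. Second probe sets of Scarb2, Psap and Ctsc did not pass. No reason for these differences was tested.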

How the results depend on the processing

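The counts of members called kept within 1.5 times of 19, 15, 4, 30 and 28 under most alternatives. Without the error trend they were 3 for CSA at day 3, 3 at day 6, 0 for the interaction in limma (10 members had an unadjusted p under 0.05) and 14 for the days under CSA. A filter at the 60th percentile gave 7 interaction calls. Leaving out probe set types that can read several transcripts or genes gave 18 calls for the days under CSA, with 31 members tested. Leaving out 1 array gave 5 to 14 calls at day 3, 10 to 13 at day 6, 1 to 4 for the interaction, 27 to 29 for the days in DMSO and 18 to 21 under CSA. Of the calls for CSA, 2 of 19 at day 3 (Hexa and Ctsk) and 2 of 15 at day 6 (Atp6v0d1 and Ctsk) passed in every alternative run, as did 0 of 4 interaction calls, 18 of 30 day calls in DMSO and 12 of 28 with CSA. With probe sets averaged per gene the day difference under CSA turned to 0.13 for Atp6v1h (adjusted p = 0.631) and -0.096 for Scarb2 (0.394). The cause of these shifts was not tested. With the replicate number as a block the counts were 21, 17, 5, 30 and 27 in the same order; deviations of same-numbered arrays correlated at -0.0034 to 0.034, so the samples share only a number. Few arrays and, for Ctss, signal below the filter limit what can be called.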
